A study of Rattus norvegicus with 7 samples.

Results

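The genes described here are 10 components of Notch signaling, out of 17147 gene symbols with a value in each of 7 RNA-seq libraries: the receptors Notch1, Notch2 and Notch3, the ligands Jag1 and Dll1, the DNA-binding factor Rbpj and the target genes Hey1, Hey2, Heyl and Hes1. They were taken by gene symbol, and the family was chosen by the FPKM values of Hey2, which are higher on ISB-P than on PCL, so every difference between these films is given for the 10 genes as a description without a p-value, and the members past a test's threshold are only counted and named beside the share of all genes past it. Rat mesenchymal stem cells (rMSCs), which the methods describe as bone marrow cells of a male Sprague-Dawley rat aged 6 weeks, were seeded at 20000 cells on films 16 mm in diameter or on tissue culture plastic (TCP), and RNA was taken 4 h later. ISB-P is a polyurethane copolymer of polycaprolactone with propoxylated isosorbide, and PCL is the polycaprolactone film it was compared with, both sterilized with ethylene oxide gas. No genetic change or added agent is named for any group. There were 3 libraries of each film and 1 of TCP. Nothing in the sources says that replicates came from separate animals, so the spread between libraries, on which every p-value below rests, may be technical. In these bulk samples, fewer cells of a type and less RNA per cell cannot be told apart.

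Notch receptors are cleaved after a ligand of the Jagged or Delta-like family on a neighboring cell binds them. The released intracellular domain joins Rbpj in the nucleus and switches on genes of the Hes and Hey families, which encode basic helix-loop-helix repressors. In bone marrow stromal cells the pathway is known for restraining osteoblast differentiation, and some Hes and Hey genes are also known to respond to bone morphogenetic proteins.

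The values are read as FPKM, fragments scaled to transcript length and to library size, so that levels can be compared between genes. No source names the unit outright, and it was inferred from the Cuffdiff software in the submitters' processing notes and from the values. FPKM summed to 539393 in the TCP library, to between 542921 and 597954 in the PCL libraries and to between 590628 and 660124 in the ISB-P libraries. Read numbers are unknown and cannot be had from such sums, so no counting error is given. A symbol listed at 0 may be a failed estimate, since Col1a2, a collagen chain, was listed at 0 in all 7 libraries although Col1a1, the other chain of the same collagen, was the most abundant of the mesenchymal markers.

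The label of the cells was first compared with marker genes. Of 11 mesenchymal markers, 10 were above 1 FPKM in all 7 libraries, among them Thy1, whose mean was 1001 FPKM on PCL and 959.9 on ISB-P. Endothelial markers are given because Hey2 and Heyl are also expressed in blood vessels. Of the 10 on the list, 0 were above 1 FPKM in all libraries, Emcn and Sox17 were listed at 0 throughout, and Pecam1 and Cdh5 stayed at 0.0732 FPKM or less. The endothelial genes summed to 0.823, 1.03 and 0.925 FPKM in PCL replicates 1, 2 and 3, to 1.90, 1.63 and 1.40 on ISB-P and to 2.13 on TCP, with Erg the most abundant, so that the lowest ISB-P sum was above the highest PCL sum. The sum was highest on TCP. Means on PCL and ISB-P were 0.391 and 0.795 FPKM for Erg, 0.0713 and 0.321 for Kdr, 0.199 and 0.201 for Vwf and 0.0447 and 0.0218 for Esam, so the listed genes did not all go 1 way. Their part in the results was not tested.
Of 8 mural markers (pericytes and smooth muscle), 6 were above 1 FPKM in all libraries, 1 of them the member Notch3. They were led by the actin gene Acta2 at 648.1 FPKM on PCL and 648.2 on ISB-P, and the 8 genes summed to 906, 855.3 and 826.1 FPKM on PCL, 907.6, 841.9 and 731.4 on ISB-P and 1104 on TCP. The contractile genes Cnn1 and Myh11 overlapped between the films, with log2 differences of -0.03 (adjusted p = 0.965 in limma) and -0.05 (adjusted p = 0.973). Mcam, an adhesion molecule, had means of 12.8 FPKM on PCL and 8.73 on ISB-P without overlap (log2 difference -0.51, adjusted p = 0.155 in limma, or 0.00287 with the replicate number as a block). Cspg4, a proteoglycan, had means of 116.3 and 88.2 FPKM with overlap (log2 difference -0.41, adjusted p = 0.635 in limma, or 0.00473 with the block), and Kcnj8, a potassium channel subunit, had means of 1.11 and 0.367 FPKM and was not tested. Pdgfrb, a growth factor receptor of mural and stromal cells that was on the mesenchymal list, was 177.5, 166.5 and 154.3 FPKM on PCL and 109.6, 97.4 and 86.6 on ISB-P for replicates 1, 2 and 3, with no overlap between the films (log2 difference -0.76, standard error 0.14, adjusted p = 0.0510 in limma, or 1.41e-04 with the block). Macrophage and blood markers summed to 39.2 to 46.6 FPKM on PCL, 39.4 to 45.3 on ISB-P and 129.5 on TCP, with Lyz2 the most abundant and Cd34 listed at 0. The part of the mural genes in the results was not tested.

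In these cells the target genes and the ligand Jag1 were higher on ISB-P than on PCL, whereas the receptors and Rbpj overlapped between the films. Hey2, Heyl, Jag1, Hes1 and Hey1 were each higher in all 3 ISB-P libraries than in any PCL library. That is 5 of the 9 members tested, where 8.17% of all 9467 tested genes were separated in this direction, and 0 of the 9 were separated as lower, where 9.54% of all genes were. The first share is a description because this contrast chose the family. That share includes Hey1, which reached 1 FPKM, the limit for testing, in all 3 libraries on ISB-P but not on PCL. The other 4 tested members overlapped between the films. Dll1 did not reach 1 FPKM in any library and was not tested. The median log2 difference, ISB-P minus PCL on log2(FPKM + 1), was 0.42 over the 9 members and 0.02 over all tested genes.

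**Figure D1:**
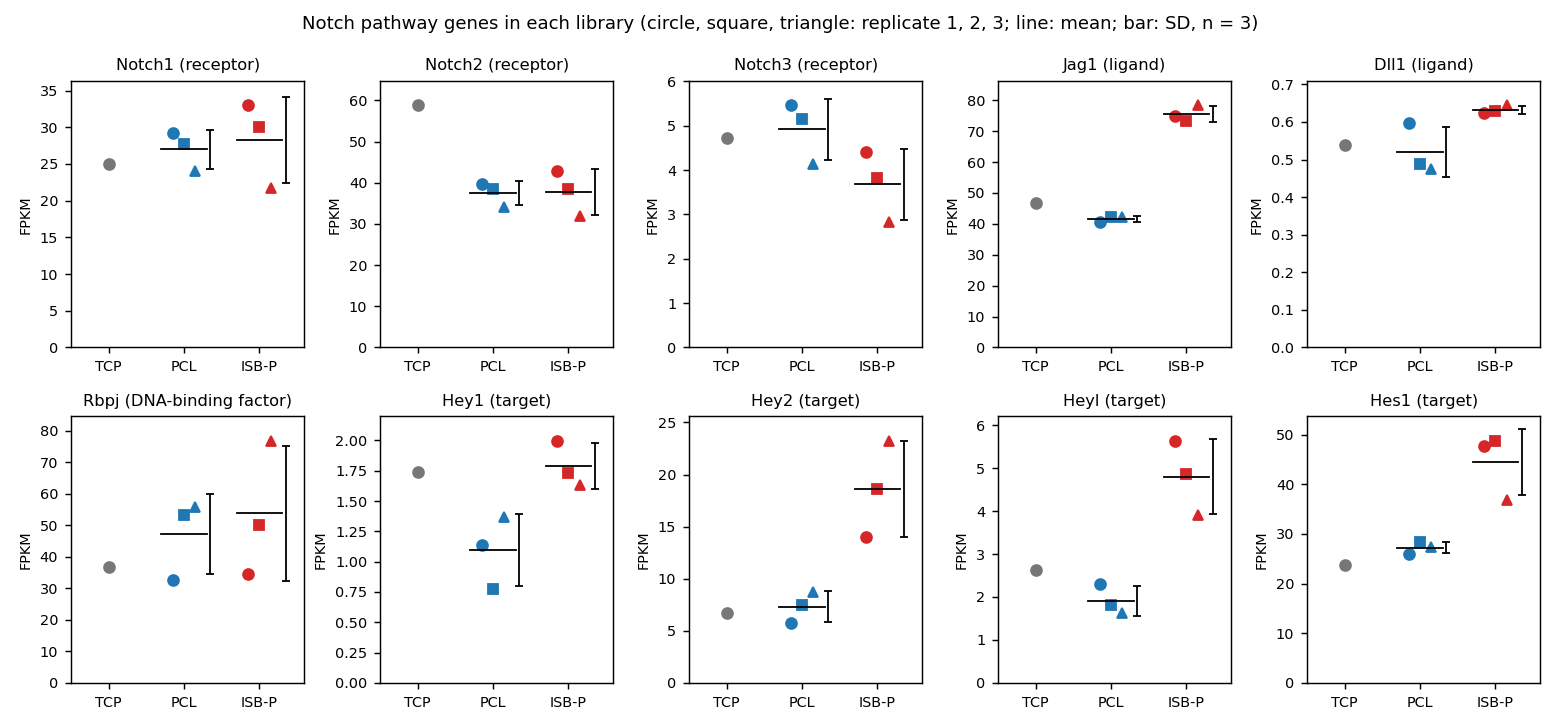
FPKM (vertical axes, each from 0) of the 10 Notch genes in the TCP library and in 3 PCL and 3 ISB-P libraries, with circles, squares and triangles for replicates 1, 2 and 3, lines for the mean and bars for the SD (n = 3). For Hey2, Heyl, Jag1, Hes1 and Hey1 all 3 ISB-P points lie above all 3 PCL points, as for the low Dll1, while the receptors and Rbpj overlap.

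Among the receptors, Notch1 was 29.2, 27.7 and 24.0 FPKM on PCL for replicates 1, 2 and 3, 33.0, 30.1 and 21.7 on ISB-P and 25.0 on TCP. The ISB-P libraries lay on both sides of the PCL libraries, and the log2 difference was 0.05 with a standard error of 0.18. Notch2, the most abundant receptor, was 39.8, 38.4 and 34.1 FPKM on PCL, 42.9, 38.5 and 32.0 on ISB-P and 58.8 on TCP. It overlapped between the films as well (log2 difference 0.01, standard error 0.15), and TCP was above all 6 film libraries. Notch3, a receptor known from mural cells, was 5.46, 5.15 and 4.14 FPKM on PCL, 4.41, 3.83 and 2.82 on ISB-P and 4.74 on TCP. It was the only tested member with a lower mean on ISB-P (log2 difference -0.34, standard error 0.17), and its highest ISB-P value was above its lowest PCL value. Within replicates 1, 2 and 3 the ratios of ISB-P to PCL were 0.807, 0.744 and 0.681.

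The ligand Jag1 was 40.5, 42.2 and 42.1 FPKM in replicates 1, 2 and 3 of PCL, 74.8, 73.4 and 78.4 on ISB-P and 46.7 on TCP. The means were 41.6 ± 0.928 FPKM on PCL and 75.5 ± 2.55 on ISB-P (SD, n = 3), a ratio of 1.82, and the log2 difference was 0.85 with a standard error of 0.11. All 3 ISB-P libraries stood above the other libraries, and Jag1 was the most abundant member on ISB-P. Dll1, a ligand of the other family, lay between 0.473 and 0.598 FPKM on PCL and between 0.624 and 0.644 on ISB-P, with 0.538 on TCP. The Dll1 values did not overlap between the films either, but at this level no difference was tested.
Rbpj, the factor that carries the Notch signal to DNA, was 32.6, 53.3 and 55.8 FPKM on PCL, 34.6, 50.2 and 76.9 on ISB-P and 36.9 on TCP. Its libraries differed more by replicate number than by film, and the log2 difference of 0.15 was below its standard error of 0.33.

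Hey2, the gene for which the family was picked, was 5.73, 7.49 and 8.73 FPKM in replicates 1, 2 and 3 of PCL, 14.0, 18.7 and 23.3 on ISB-P and 6.71 on TCP. TCP lay within the PCL range, and the lowest ISB-P library was above the highest PCL library. The means were 7.31 ± 1.51 FPKM on PCL and 18.6 ± 4.61 on ISB-P (SD, n = 3), a ratio of 2.55, and within replicates 1, 2 and 3 the ratios were 2.45, 2.49 and 2.67. Its log2 difference of 1.23 (standard error 0.22) ranked 53 among the 9467 tested genes. Heyl, a Hey family repressor with lower expression, had nearly the same ratio. It was 2.29, 1.82 and 1.62 FPKM on PCL, 5.64, 4.86 and 3.90 on ISB-P and 2.62 on TCP, and the ratio of means was 2.51 (log2 difference 0.99, standard error 0.15). The ratios within replicates 1, 2 and 3 were 2.46, 2.68 and 2.41.
Hes1, the most abundant target of the 4, was 26.0, 28.4 and 27.3 FPKM on PCL, 47.8, 48.8 and 36.9 on ISB-P and 23.8 on TCP. Replicate 3 was the lowest of the ISB-P libraries and still above every PCL library, and the ratio of means was 1.63 (log2 difference 0.68, standard error 0.15). Hey1 was close to the limit of 1 FPKM for testing, at 1.14, 0.777 and 1.37 FPKM on PCL, 2.00, 1.73 and 1.63 on ISB-P and 1.74 on TCP. The PCL value of 0.777 was below this limit, so the PCL libraries alone would not have admitted Hey1 to the test. The lowest ISB-P value exceeded the highest PCL value by 1.20 times, the log2 difference was 0.42 with a standard error of 0.13, and the TCP value lay within the ISB-P range.

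**Figure D2:**
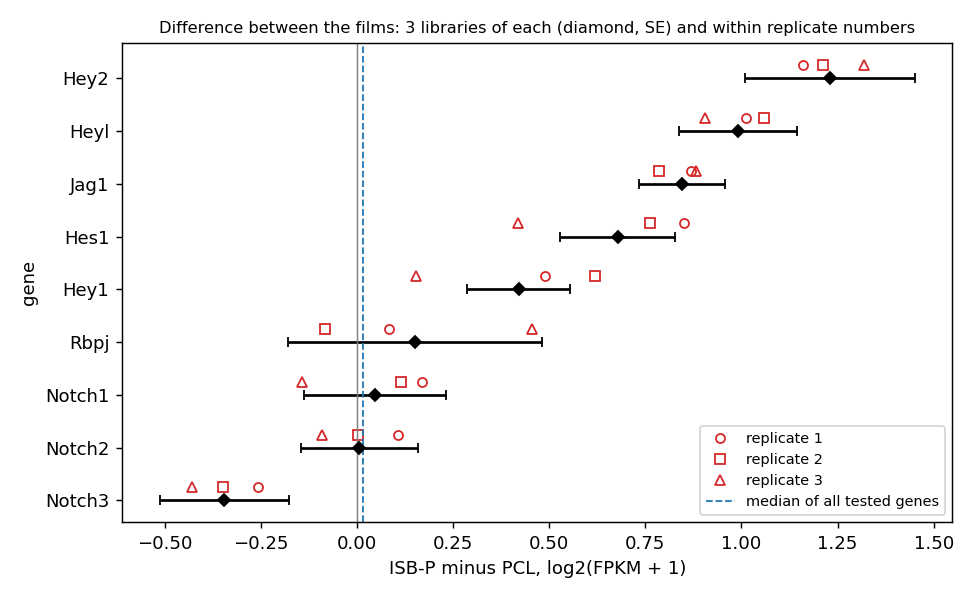
Difference between ISB-P and PCL on log2(FPKM + 1) (horizontal axis) for the 9 tested Notch genes (vertical axis), as the difference of the means with its standard error (diamonds, 3 libraries of each film) and within replicates 1, 2 and 3 (open symbols). Hey2, Heyl, Jag1, Hes1 and Hey1 lie to the right of 0 in all 3 replicates, Notch3 lies to the left in all 3, and Notch1, Notch2 and Rbpj have replicates on both sides.

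In limma, with p-values adjusted over the 9467 tested genes, 104 genes were higher on ISB-P at an adjusted p under 0.05 (1.10%) and 59 lower (0.623%). With all libraries scaled to 1 common total these became 70 and 70. Jag1 and Heyl were among the genes called higher, 2 of the 9 tested members, and 0 members were called lower. The replicate numbers pair the libraries of the films, and a fit with that number as a block called 13.0% of the tested genes higher and 11.4% lower. Among the members these were Jag1, Heyl, Hey2, Hes1 and Hey1 as higher and Notch3 as lower. Since the contrast was used to choose the family, nothing is read from these shares.
The order of the levels also differed between the films. On PCL it ran from Rbpj over Jag1, Notch2, Hes1, Notch1, Hey2, Notch3, Heyl and Hey1 to Dll1, and only the neighbors Rbpj and Jag1, and Hes1 and Notch1, overlapped in their libraries. On ISB-P it ran from Jag1 over Rbpj, Hes1, Notch2, Notch1, Hey2, Heyl, Notch3 and Hey1 to Dll1. There each neighbor from Jag1 down to Hey2 overlapped with the next, as did Heyl and Notch3, while Hey2 and Heyl, Notch3 and Hey1, and Hey1 and Dll1 did not. Hes1 thus stood below Notch2 on PCL and, with overlap, above it on ISB-P, and the same held for Heyl and Notch3.

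Hes1, Hey2, Heyl and Jag1 were higher on ISB-P together, so the 250 bases before the annotated start of each are shown, from RefSeq promoters of the GRCr8 rat assembly. These were matched by symbol, since the deposited values come from the older rn5 build. Capitals mark TGGGAA, the core of the sequence that Rbpj binds, and CACGCG, a sequence bound by Hes and Hey repressors, each on either strand (TTCCCA and CGCGTG in the other direction).
Hey2, chr1:28640850-28641099, plus strand: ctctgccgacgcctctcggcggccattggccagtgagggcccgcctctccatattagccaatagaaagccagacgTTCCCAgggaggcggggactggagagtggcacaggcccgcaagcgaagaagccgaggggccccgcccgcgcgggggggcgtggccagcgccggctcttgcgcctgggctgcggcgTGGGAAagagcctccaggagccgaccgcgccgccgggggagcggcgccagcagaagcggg
Hes1, chr11:84213046-84213295, minus strand: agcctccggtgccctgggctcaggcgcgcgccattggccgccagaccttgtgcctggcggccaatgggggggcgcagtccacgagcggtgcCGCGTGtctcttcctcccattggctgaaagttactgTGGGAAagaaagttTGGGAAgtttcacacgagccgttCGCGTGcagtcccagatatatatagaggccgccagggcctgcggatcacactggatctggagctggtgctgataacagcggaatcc
Heyl, chr5:140793021-140793270, plus strand: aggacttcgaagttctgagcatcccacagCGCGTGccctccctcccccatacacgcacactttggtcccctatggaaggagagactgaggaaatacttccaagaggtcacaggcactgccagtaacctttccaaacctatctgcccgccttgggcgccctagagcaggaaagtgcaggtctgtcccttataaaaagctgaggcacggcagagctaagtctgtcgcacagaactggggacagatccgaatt
Jag1, chr3:144894884-144895133, minus strand: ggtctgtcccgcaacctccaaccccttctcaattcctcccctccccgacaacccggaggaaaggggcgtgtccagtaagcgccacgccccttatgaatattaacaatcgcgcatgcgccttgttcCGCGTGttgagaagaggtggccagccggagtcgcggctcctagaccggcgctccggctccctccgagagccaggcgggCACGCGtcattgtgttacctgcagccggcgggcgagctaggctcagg
Counted from the start, Hey2 held TGGGAA at -175 on the opposite strand and at -60, and the latter was part of the longer form GTGGGAA. Hes1 held it at -123, in the longer form, and at -109, and it also held CACGCG at -159 and -86. Heyl and Jag1 had no TGGGAA in this window, and each held CACGCG, at 1 place in Heyl and at 2 in Jag1. Of 33469 RefSeq promoter windows of 300 bases (250 before and 50 after the start), 25.7% held TGGGAA on either strand, 6.29% GTGGGAA, which contains it, 8.5% CACGCG and 6.42% CACGTG, a further site of these repressors. Among 9 members with a window, which leave out Hey1 and for Rbpj include 2 windows, 5 held TGGGAA (Notch3, Dll1, Rbpj, Hey2 and Hes1), 3 GTGGGAA (Dll1, Hey2 and Hes1), 4 CACGCG (Notch2, Jag1, Heyl and Hes1) and 0 CACGTG. A match in these letters is a description, and whether a factor binds there was not measured.

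TCP was represented by 1 library, so no difference from TCP has a replicate check. The differences of ISB-P from TCP use the ISB-P values by which the family was chosen, so they are not independent of that choice and nothing is read from their count. Levels of 4 of the 9 tested members, Jag1, Hey2, Heyl and Hes1, were over 1.5-fold higher in the ISB-P mean than on TCP on the log2(FPKM + 1) scale, as were 21.0% of all tested genes. The log2 differences from TCP were 1.35 for Hey2, 0.88 for Hes1 and 0.68 for both Jag1 and Heyl. On PCL 0 of the 9 were over 1.5-fold above TCP, against 14.1% of all tested genes. The PCL mean minus TCP was 0.11 for Hey2 (-0.02 without PCL replicate 3), 0.19 for Hes1, -0.16 for Jag1 and -0.32 for Heyl. The difference for Jag1 between ISB-P and TCP fell under 1.5-fold with quantile normalization (0.47), with a common total (0.50) and with upper quartile scaling (0.57). That for Heyl did so with a common total (0.54) and without ISB-P replicate 1 (0.57). Rbpj was at 0.53 and passed the limit without ISB-P replicate 1 (0.77).
With the pseudocount of 1, Notch2 was the only tested member over 1.5-fold lower than TCP, by a log2 difference of -0.64 on PCL and -0.63 on ISB-P, where 9.28% and 13.3% of all tested genes were that much lower. With a pseudocount of 0.1 the low Hey1 also passed this limit on PCL, at -0.62 against -0.39 with a pseudocount of 1. The Notch2 difference came under 1.5-fold without replicate 3, at -0.58 on PCL and -0.52 on ISB-P. Macrophage and blood markers were also higher in the TCP library, at a sum of 129.5 FPKM against at most 46.6 on the films, and their part in these differences was not tested.

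Replicate number is a measure that is independent of the choice of Hey2, because each number occurs once on each film. In a fit with film and replicate number, limma's moderated F test compared the replicate numbers at an adjusted p under 0.05. It called a difference in 58.4% of all tested genes and in 6 of the 9 tested members (66.7%). These shares are close, so a difference between replicate numbers is not particular to the members. For Rbpj (adjusted p = 0.00115) and Hey2 (adjusted p = 0.00269) replicate 3 was above replicate 1 on both films. The ratio of replicate 3 to replicate 1 was 1.71 on PCL and 2.22 on ISB-P for Rbpj, and 1.52 and 1.66 for Hey2.
For Heyl (adjusted p = 0.0410) and the 3 receptors the direction was the opposite. The ratio of replicate 3 to replicate 1 was 0.705 on PCL and 0.692 on ISB-P for Heyl, and 0.823 and 0.657 for Notch1 (adjusted p = 0.0162). It was 0.858 and 0.745 for Notch2 (adjusted p = 0.0392) and 0.758 and 0.640 for Notch3 (adjusted p = 0.0235). Hey2 and Heyl therefore had nearly equal ratios between the films and opposite differences between replicates 1 and 3 on either film. Jag1 (adjusted p = 0.795), Hey1 (adjusted p = 0.393) and Hes1 (adjusted p = 0.249) did not pass the F test, and Jag1 in replicate 3 was 1.04 times replicate 1 on PCL and 1.05 times on ISB-P.
The adjusted p of Hey2 and Rbpj stayed under 0.05 in this test with any 1 library left out, which leaves 1 residual degree of freedom. That of Notch1 rose to 0.0775 without ISB-P replicate 1, and that of Notch3 to 0.0989 without ISB-P replicate 1 and 0.0812 without ISB-P replicate 3. For Heyl it was 0.135 and 0.0519 without PCL replicates 1 and 2, and 0.191, 0.0544 and 0.119 without ISB-P replicates 1, 2 and 3. For Notch2 it was 0.124 and 0.0773 without PCL replicates 1 and 2, and 0.327 and 0.0758 without ISB-P replicates 1 and 2. Without the filter on low values it was 0.0824 for Heyl, 0.0609 for Notch2 and 0.0664 for Notch3. Hes1 passed with upper quartile scaling (adjusted p = 0.0444), with quantile normalization (adjusted p = 0.0491) and without PCL replicate 3 (adjusted p = 3.57e-05).

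**Figure D3:**
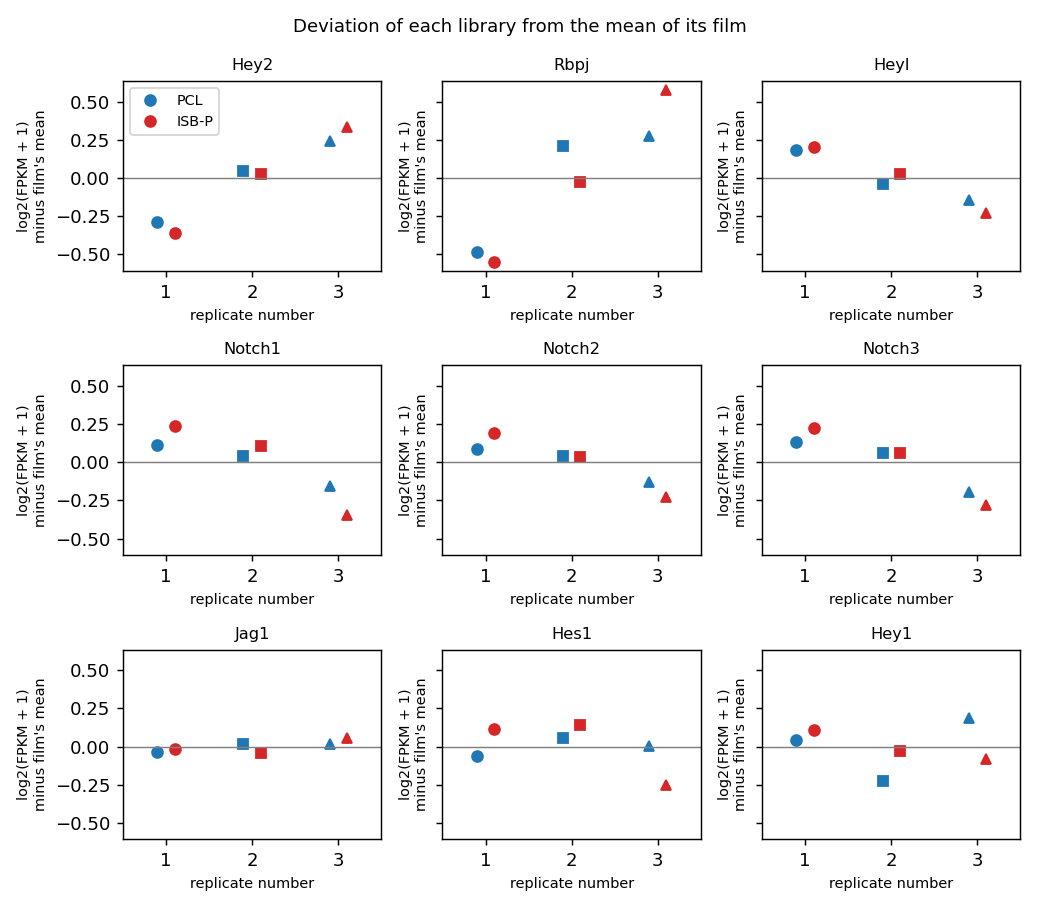
Deviation of each film library from the mean of its film on log2(FPKM + 1) (vertical axes) against replicate number (horizontal axes) for the 9 tested Notch genes, PCL in blue and ISB-P in red. Replicate 1 is low and replicate 3 high on both films for Hey2 and Rbpj, the reverse holds for Heyl and the 3 receptors, and Jag1 stays close to 0.

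The rest of the pathway was read from a list of 81 further genes, of which 70 were in the files and 59 were tested. The list also holds feedback genes of bone morphogenetic protein and TGF-beta signaling, and 6 of the 59 were such genes. In limma 0 of the 59 were higher on ISB-P and 1 was lower at an adjusted p under 0.05, set against 1.10% and 0.623% of all tested genes, and 4 were higher and 5 lower at an unadjusted p under 0.05. The background at that unadjusted p was 12.1% in both directions together. Blocked by replicate number, 5 were higher and 14 lower, set against 13.0% and 11.4%. Id1 and Id2, of the feedback genes, were 2 of the 4 higher at the unadjusted p and 2 of the 5 higher with the block. The median log2 difference of the 59 was -0.05.
The gene called lower was Dlk2, which encodes a Delta-like membrane protein without the domain by which the classical ligands activate Notch. It was 10.4, 8.02 and 6.90 FPKM on PCL for replicates 1, 2 and 3, 3.34, 2.18 and 1.59 on ISB-P and 11.0 on TCP. All 3 ISB-P libraries were below the other 4, and the mean was 2.37 ± 0.890 FPKM on ISB-P against 8.44 ± 1.79 on PCL (SD, n = 3; log2 difference -1.50, standard error 0.23, adjusted p = 0.0310 in limma). Of the 9467 tested genes, 2 had a lower log2 difference. The adjusted p was 0.0513 with upper quartile scaling, 0.107, 0.172 and 0.0861 without PCL replicates 1, 2 and 3 and 0.184 without ISB-P replicate 2. Dlk1, Dll3 and the receptor Notch4 were below the limit for testing, with means over the 7 libraries of 0.660, 0.128 and 0.117 FPKM.

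Of 9 genes for proteases that cleave the receptors, 0 were called in either direction, where 1.10% of all tested genes were called higher and 0.623% lower, and 0 had an unadjusted p under 0.05, where 12.1% of all genes did. Log2 differences ran from -0.27 to 0.03, and 8 of the 9 were below 0, as were 47.1% of all tested genes. With the block 1 was called lower, Furin (adjusted p = 0.0300 in limma), which was named after its values were seen. The most abundant were the gamma-secretase subunits Psenen, at 76.1 ± 7.01 FPKM on PCL and 68.5 ± 9.63 on ISB-P, Aph1a, at 67.0 ± 3.59 and 65.9 ± 3.79, and Ncstn, at 57.5 ± 6.04 and 56.8 ± 4.72 (SD, n = 3). Of 4 tested genes of receptor glycosylation, 0 were called, and 1 had an unadjusted p under 0.05, set against the same shares of all genes. It was Lfng, the Fringe enzyme whose sugar alters which ligands a receptor answers to. Lfng was 43.1, 44.7 and 35.9 FPKM on PCL, 29.3, 24.9 and 16.5 on ISB-P and 25.7 on TCP, so the films did not overlap and TCP lay in the ISB-P range (log2 difference -0.81, standard error 0.22, adjusted p = 0.173 in limma, or 9.52e-04 with the replicate number as a block). Poglut1 and Pofut1, which add the first sugars, had log2 differences of -0.08 and -0.06.
Of 11 tested genes of ubiquitination and trafficking, 0 were called and 1 had an unadjusted p under 0.05, set against 12.1% of all tested genes, and 9 of the 11 had a log2 difference below 0, as did 47.1% of all tested genes, with a median of -0.31. Their most abundant genes were Numbl, Itch and Mib1, the last a ligase that acts on the ligands, with log2 differences of 0.02, -0.02 and -0.10. With the block 0 were called higher and 6 lower, set against 13.0% and 11.4% of all tested genes, namely Mib2, Neurl1, Neurl1b, Dtx2, Dtx3l and Dtx4, which were named after their values were seen.

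Of 4 tested coactivators and 15 corepressors, 0 were called, set against 1.10% of all tested genes called higher and 0.623% lower, and 0 had an unadjusted p under 0.05, set against 12.1%. Medians were -0.04 and 0.07. The most abundant coactivators were Snw1, with a log2 difference of 0.35 (standard error 0.26), Kat2a, with -0.39 (standard error 0.17), and Maml1, with -0.15 (standard error 0.18). Aes, a Groucho-related corepressor, had the highest level of this class at a mean of 152.8 FPKM over the 7 libraries, followed by Hdac2 and Ctbp1, and their log2 differences were -0.12, 0.13 and -0.21. Among the coactivators the block called Snw1 higher and Kat2a lower, set against 13.0% and 11.4% of all tested genes.
Of 9 other tested genes known as Notch targets, 0 were called and 4 had an unadjusted p under 0.05, set against 12.1% of all tested genes. In 2 of the 9 the ISB-P libraries were all higher and in 2 all lower, set against 8.17% and 9.54%. The most abundant was Snai1, a repressor of epithelial genes, at 202.8 ± 42.2 FPKM on PCL and 187.9 ± 58.4 on ISB-P. Ccnd1, the G1 cyclin, was 139.3, 151.1 and 159.2 FPKM on PCL, 109.7, 106 and 109.9 on ISB-P and 230.9 on TCP, without overlap between the films (log2 difference -0.46, standard error 0.12, adjusted p = 0.138 in limma, or 0.00240 with the block). Myc was 77.8 ± 3.87 and 87.6 ± 12.0 FPKM (SD, n = 3). Snai2, a relative of Snai1 that was named after its values were seen, was 10.8, 12.7 and 10.5 FPKM on PCL, 17.7, 22.5 and 22.1 on ISB-P and 43.3 on TCP (log2 difference 0.82, standard error 0.15, adjusted p = 0.0510 in limma, or 4.40e-04 with the block). TCP was above both films for Snai2, unlike for Hey2. Bhlhe40, a related repressor, and Nrarp, a feedback inhibitor of Notch, were also named after their values were seen. Bhlhe40 was 61.0, 50.7 and 52.7 FPKM on PCL, 92.5, 76.5 and 78.7 on ISB-P and 102.9 on TCP (log2 difference 0.58, standard error 0.14, adjusted p = 0.126 in limma, or 5.64e-04 with the block). Nrarp was too low to be tested, at 0.128, 0.146 and 0.271 FPKM on PCL, 0.821, 0.4999 and 0.377 on ISB-P and 0.0367 on TCP, also without overlap between the films. Gata2, a transcription factor likewise named after its values were seen, was the other gene separated as lower (log2 difference -0.40, standard error 0.11, adjusted p = 0.166 in limma, or 0.0179 with the block). Hes2, Hes5 and Hes6 are relatives of Hes1, also named after their values were seen. Hes2 and Hes6 overlapped between the films, Hes6 being called lower with the block (adjusted p = 0.0130 in limma), and Hes5, another classical target, was listed at 0 in all 7 libraries.
Feedback genes of bone morphogenetic protein and TGF-beta signaling were read beside the Hey genes because the latter also respond to these proteins. Of 6 tested, 0 were called, set against 1.10% of all tested genes called higher and 0.623% lower, and 2 had an unadjusted p under 0.05, set against 12.1%. With the block 2 were called higher, Id1 and Id2, set against 13.0%. Id2 was 29.0, 22.0 and 27.4 FPKM on PCL, 39.8, 36.2 and 38.6 on ISB-P and 27.6 on TCP (log2 difference 0.54, standard error 0.14, adjusted p = 0.164 in limma, or 0.00212 with the block). Id1 was 26.3, 19.5 and 24.1 FPKM on PCL, 41.4, 35.1 and 27.1 on ISB-P and 35.5 on TCP (log2 difference 0.54, standard error 0.20, adjusted p = 0.317 in limma, or 0.0120 with the block). Both were separated as higher on ISB-P, as were 8.17% of all tested genes, while Id3, the most abundant of the group, overlapped at 470 ± 58.6 FPKM on PCL and 445.7 ± 80.1 on ISB-P.

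**Figure D4:**
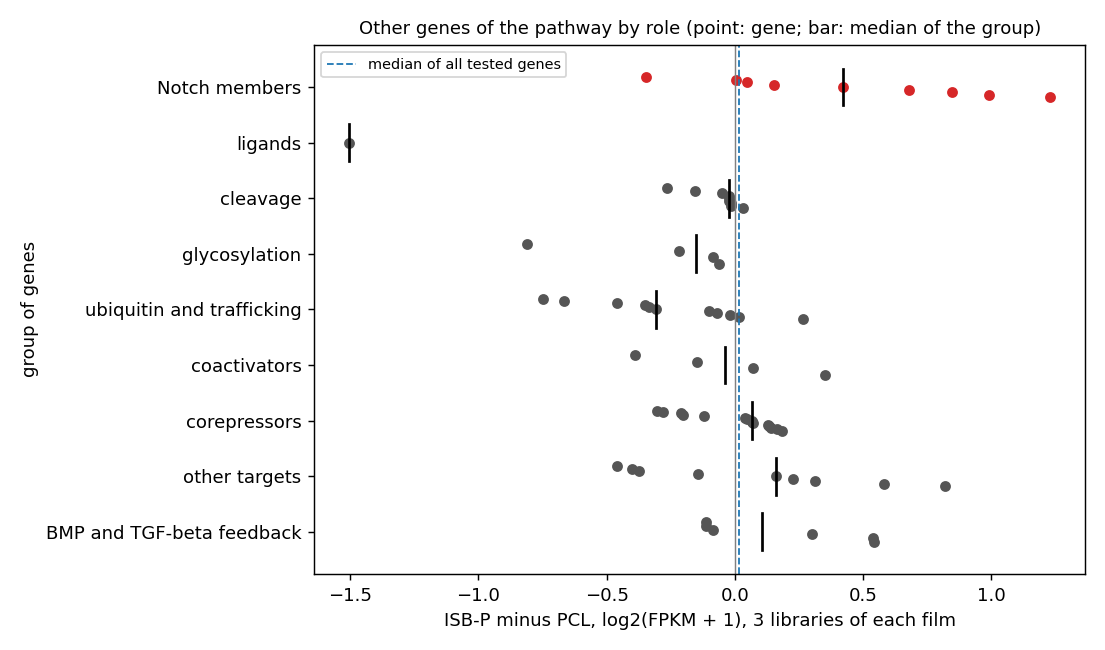
Difference between ISB-P and PCL on log2(FPKM + 1) (horizontal axis, 3 libraries of each film) for the 9 tested Notch members in red and 59 tested genes of the further list in gray, by role (vertical axis), with bars for the median of each group and a dashed line for the median of all tested genes (0.02). The list includes 6 feedback genes of bone morphogenetic protein and TGF-beta signaling. The ligand Dlk2 lies farthest to the left at -1.50, the cleavage genes lie close to 0, and the median of the members is 0.42.

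The genes whose levels followed Hey2 and Heyl most closely were sought over the 7 libraries by Pearson correlation on log2(FPKM + 1) among the tested genes outside the members. The libraries share the difference between the films and the replicate numbers, so a high correlation is common among genes that follow both. For Hey2 the 5 closest were Flvcr2 (r = 0.992), a membrane transporter, Dnaja1 (r = 0.990), an Hsp40 cochaperone, Hsd17b7 (r = 0.990), an enzyme of cholesterol synthesis, Sec23b (r = 0.989), a coat protein of transport vesicles, and Stard4 (r = 0.985), a sterol carrier. Hsd17b7, for example, was 12.8, 14.9 and 15.7 FPKM on PCL, 22.4, 25.1 and 28.7 on ISB-P and 15.5 on TCP. As for Hey2, the replicate 3 library was the highest on each film and TCP lay with the PCL libraries. Hsd17b7, and Bag3 below, were picked for following Hey2 or Heyl over these same libraries, so such likeness comes from the choice.
For Heyl the 5 closest were Bag3 (r = 0.997), a cochaperone of Hsp70, Kat5 (r = 0.991), an acetyltransferase, Banp (r = 0.990), Lrrc51 (r = 0.987) and Csrnp1 (r = 0.985). Bag3 was 117, 104.7 and 89.0 FPKM on PCL, 372.9, 310.8 and 230.3 on ISB-P and 155.8 on TCP, with replicate 1 the highest on each film and TCP between the films, as for Heyl. The lists for Hey2 and Heyl shared 0 genes.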

How the data were processed

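Strand-specific mRNA libraries of rMSCs were sequenced as paired ends by a sequencing company for the study. The submitters' processing notes name bcl2fastq 2.20.0.422, cutadapt 1.18, TopHat2 2.0.13 and Cuffdiff 2.2.1 and the rat build rn5, and the methods name ExDEGA. The deposited FPKM values, 1 per gene symbol and library, were used as deposited. Conditions and replicate numbers came from the sample labels. The members and gene lists were chosen with earlier results of these data known.

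The 9467 genes that reached 1 FPKM in 3 or more of 6 film libraries were fitted with limma 3.58.1 in R 4.3.3 (lmFit, eBayes with trend) on log2(FPKM + 1), which understates changes of low genes. Tests were two-sided with Benjamini-Hochberg adjustment over these genes, and ISB-P and PCL alone entered the fit. The scripts were tested on simulated data. Single genes with 3 libraries a film cannot go below p = 0.1 in an exact permutation test, so none was run. The replicate numbers pair the films' libraries: across genes, a library's deviation from the mean of its film correlated with that of its namesake on the other film (r = 0.887, 0.431 and 0.867 for numbers 1, 2 and 3), against -0.356 on average for different numbers. TCP, with 1 library, was compared by value only.

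Named genes were the members, genes of the list with an adjusted p under 0.05, the 3 most abundant genes of each role, fixed cell type markers and the 5 genes most like Hey2 and most like Heyl, with exceptions marked. Alternatives were 3 scalings, a pseudocount of 0.1, no filter, a filter at 5 FPKM, the replicate block, TCP in the fit and each film library left out in turn. Depth is unknown, and precision rests on the 3 replicates. Python 3.11.15 and matplotlib 3.10.9 made the figures.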

Additional observations from a re-analysis of the deposited data

How the results depend on the processing

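Of the 104 genes higher and 59 lower on ISB-P, a filter at 5 FPKM gave 61 and 24, and upper quartile scaling gave 39 lower. The replicate block, which uses the pairing, gave 1228 and 1079, and with each film library left out in turn they ranged from 14 (without PCL replicate 2) to 82 (without ISB-P replicate 3) and from 6 to 31. For the list of further genes, feedback genes included, 0 were higher under the alternatives other than the block, which gave 5 higher and 14 lower. The 1 lower gene was lost (0) with upper quartile scaling and ranged from 0 to 1 with a library left out. For list genes and markers, calls that the block changed stand with those genes, and for the members with the counts of calls. The block changed no other call given there. No calls are given for the genes most like Hey2 or Heyl, because they were picked for following Hey2 or Heyl over the same libraries. Scaling to a common total moved the median log2 difference of all tested genes from 0.02 to -0.09, and Jag1 then stood at 0.73. The log2 differences of Hey2, Heyl, Jag1, Hes1 and Hey1 were above 0 in every alternative run. This is a description only, since the contrast chose the family and these genes were named for being separated as higher. The pseudocount of 0.1 raised the log2 difference of Heyl to 1.28 and of Hey1 to 0.69. Depth is unknown, so a gene listed at 0 is not shown to be absent. The cause of these changes was not tested.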
